A study of Homo sapiens with 30 samples.

Results

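The comparison set PIP day 5 against day 3, the opening step of the placode arm of a differentiation series in H9, a widely used line of human embryonic stem cells. It rests on 6 of the 30 arrays of the series, namely the 3 arrays labelled PIP day 5 and the 3 arrays labelled day 3, which were chosen by their labels alone. The 3 arrays of NSB day 5, the other arm at the same age, were used to see where the PIP step differed. The labels give no genotype change, describe day 3 as a stage before the arms are named, tie PIP to placode differentiation and do not spell out either abbreviation. From knowledge of the study, all groups began under dual SMAD inhibition, that is Noggin, an antagonist of bone morphogenetic proteins (BMPs), together with SB431542, a blocker of the activin and Nodal receptors. As further background, NSB cultures kept both agents, whereas PIP, the placode induction protocol, withdrew Noggin after day 3 and kept the receptor blocker. H9 is 1 line, and within a group the labels number 3 biological replicates. Each of the 9 arrays used here carries a pair of sample codes, and the labels do not state whether RNA was pooled. The p-values measure a spread between arrays within groups, which was estimated over all 30 arrays of the 10 groups and not over these 9 alone.

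Placodes are thickenings of the ectoderm at the border of the neural plate that form the lens, the inner ear, the anterior pituitary and cranial sensory neurons. Ectoderm shielded from BMP signals tends towards a neural fate, whereas BMP signalling favours the non-neural ectoderm from which placodes and epidermis are set apart. BMP ligands bind receptor kinases that phosphorylate SMAD1, SMAD5 and SMAD9, and these act with SMAD4 on targets such as the ID genes, which encode inhibitors of basic helix-loop-helix factors.

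Total RNA was labelled and hybridised to Illumina bead arrays, and all levels below are log2 intensities after background correction and quantile normalization over the 30 arrays. Median unnormalised intensity was 57.5 to 63.1 on PIP day 5 arrays, 45.4 to 53.7 on NSB day 5 arrays and 52.58 to 52.96 on day 3 arrays. The share of probes detected (detection p-value under 0.05) was 35.2% to 36.5% at PIP day 5, 36.8% to 37.7% at NSB day 5 and 37.1% to 37.5% at day 3. Across genes, the correlation was 0.9966 to 0.9968 between PIP day 5 arrays, 0.9975 to 0.9979 between day 3 arrays and 0.9709 to 0.973 between arrays of the 2 groups, so that no array of the step stood apart from its group. Of the 5 stem cell markers 4 were lower and 1 higher at PIP day 5, all 5 were detected on every array of both groups, and their summed intensity was 22900 to 23900 at PIP day 5 and 25600 to 26000 at day 3. Because these are bulk samples, fewer cells of a type and less RNA per cell cannot be told apart in any result below.

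Expression changed widely between day 3 and PIP day 5. Of 13488 genes tested, 2887 were higher (21.4%) and 3099 were lower (23.0%) at an adjusted p under 0.05 in limma, so that 44.4% of all genes were called, and the median log2 difference over all genes was 0.004. At least 2-fold, 293 genes were higher and 388 were lower, which made up 5.05% of those tested, and at least 4-fold 48 were higher and 59 lower. In 61.2% of genes the 3 PIP day 5 arrays and the 3 day 3 arrays did not overlap, so an absence of overlap says little about any gene by itself. The split between higher and lower calls depended on scaling: higher genes were 48.2% of the calls after quantile normalization and 22.7% when arrays were scaled to the median of all probes, which moved the median difference of all genes to -0.137. Small differences are therefore read below against that shift. A detection pattern of all 3 PIP day 5 arrays and no day 3 array was seen for 100 genes, 94 of them called higher, and the opposite pattern for 234 genes, 191 of them called lower. Fewer probes were detected on PIP day 5 arrays in general, as given above, and the part of this in the unequal counts was not tested.

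The largest rises belonged to transcription factors of the ectoderm and to adhesion and signalling molecules. DLX5, a homeobox factor of the non-neural ectoderm and its border, had 10.10, 10.03 and 10.03 at PIP day 5, against 4.54, 4.83 and 4.68 at day 3, where its probe was detected on no array. Its rise was at least 30.3-fold, the bound that the detection floor of day 3 allows (adjusted p = 6.16e-24 in limma). TFAP2A, a regulator of non-neural ectoderm and of its border with the neural plate, had 10.03, 9.75 and 9.93 at PIP day 5, against 4.94, 5.12 and 4.99 at day 3, a rise of at least 27.3-fold. Among factors of the forebrain and eye field, SIX3 had 9.45, 9.42 and 9.49 at PIP day 5 and 5.05, 5.44 and 5.09 at day 3. The LIM factor LHX2, which is needed for eye formation, had 7.98, 7.66 and 7.75 at PIP day 5 and 4.69, 4.83 and 4.69 at day 3, at least 6.34-fold higher. LMO1, a LIM-only protein that binds other transcription factors, had 11.39, 11.36 and 11.25 at PIP day 5 and 8.14, 8.19 and 8.10 at day 3, where it was already detected. In each of these 5 genes, which were picked among genes without overlap, all PIP day 5 arrays lay far above all day 3 arrays, and the arrays of a group differed little.

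Among surface and secreted proteins, CDH6, a cadherin of early neural and renal epithelia, averaged 10.07 ± 0.06 at PIP day 5 and 5.50 ± 0.05 at day 3 (SD, n = 3 each), a log2 difference of 4.57 ± 0.09 (SE). FLRT3, a membrane partner of fibroblast growth factor receptors, had 10.81, 10.80 and 10.88 at PIP day 5 and 6.72, 6.86 and 6.77 at day 3. A further probe of FLRT3, near background in both groups, differed by 0.23 and was not called. DLK1, a membrane protein related to Notch ligands, had 13.77, 13.77 and 13.81 at PIP day 5 and 9.77, 9.84 and 9.74 at day 3, and another of its probes rose by 4.40. EPHA4, an ephrin receptor that guides axons, had 10.71, 10.84 and 10.83 at PIP day 5 and 6.79, 6.97 and 6.92 at day 3. VWF, best known as the clotting factor of endothelium, had 10.72, 10.69 and 10.80 at PIP day 5 and 6.61, 6.76 and 6.88 at day 3, whereas CDH5, PTPRC, GATA1 and TAL1, which mark endothelium and blood, were detected on no array of either group and PECAM1, a further marker, on 1 PIP day 5 array. DKK1, a secreted blocker of WNT co-receptors, was at least 8.98-fold higher and undetected at day 3. Undetected at day 3 as well were LIX1, a marker of developing limb and brain in chick (at least 8.19-fold higher), ANKRD1, a nuclear target of YAP (at least 9.18-fold) and GREM1, a secreted BMP antagonist (at least 8.11-fold). ENC1, an actin-binding protein of the early nervous system, had 10.31, 10.22 and 10.25 at PIP day 5 and 7.52, 7.31 and 7.19 at day 3.

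**Figure D1:**
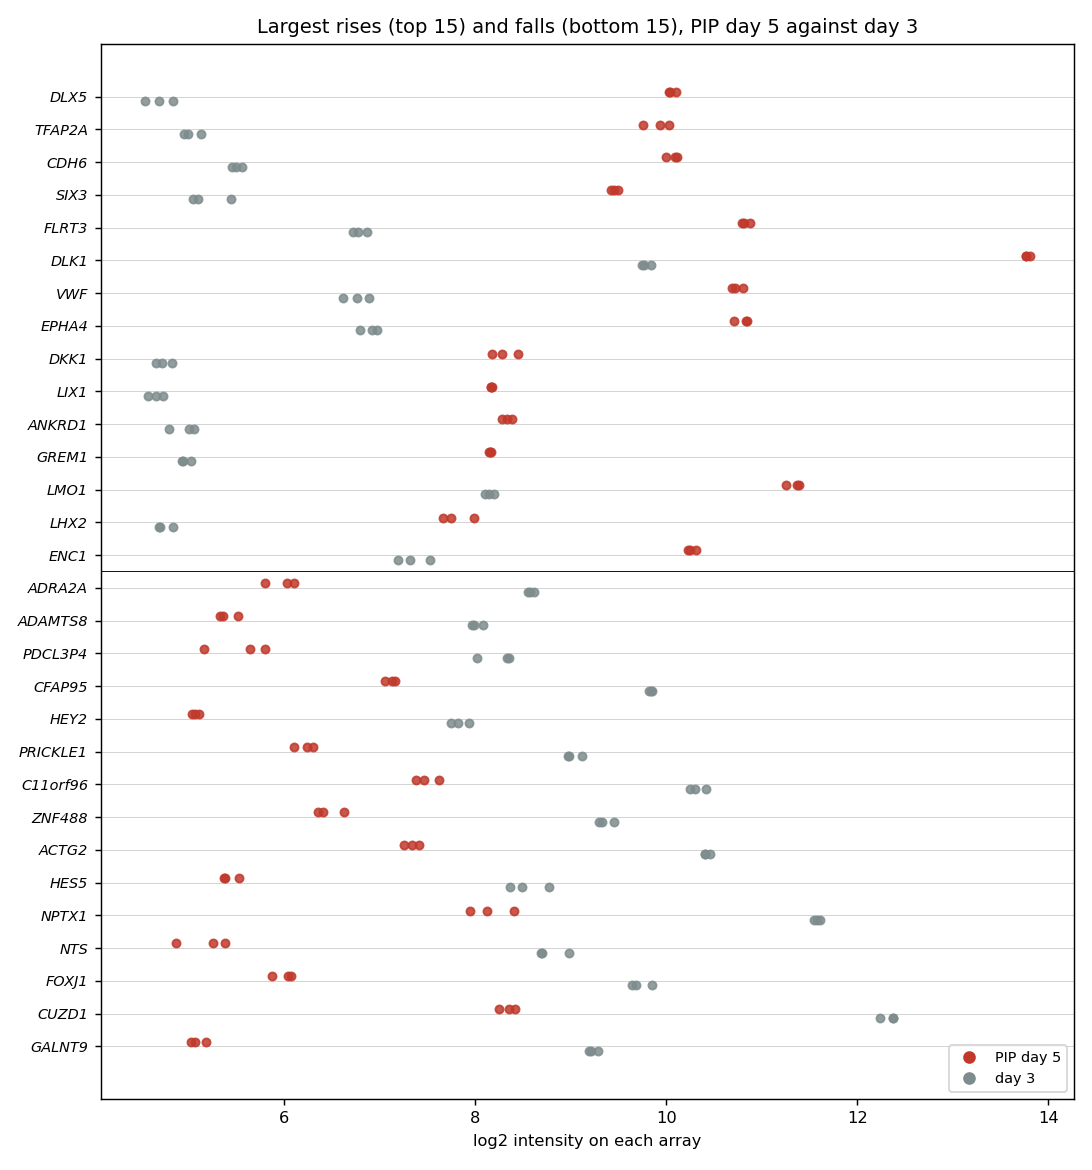
Log2 intensity on each array (horizontal axis) of the 15 genes with the largest rise and the 15 with the largest fall, with PIP day 5 arrays in red and day 3 arrays in grey (3 arrays a group). In all 30 genes the arrays of the 2 groups are separated, which the choice of genes without overlap required. Within a group the arrays lie close together compared with the gap between groups.

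The largest falls took in genes well detected at day 3, of which some were at the detection floor by PIP day 5 and others were still clearly detected. GALNT9, a glycosyltransferase of the brain, had 5.06, 5.18 and 5.02 at PIP day 5, where it was detected on no array, against 9.21, 9.29 and 9.19 at day 3, so that it was at least 16.5-fold lower. CUZD1, a membrane protein of secretory granules, had 8.24, 8.41 and 8.35 at PIP day 5 and 12.37, 12.24 and 12.37 at day 3. FOXJ1, the master regulator of motile cilia, had 5.87, 6.06 and 6.04 at PIP day 5 and 9.85, 9.64 and 9.68 at day 3, a log2 difference of -3.73 ± 0.11. NPTX1, a secreted synaptic pentraxin, had 8.41, 8.12 and 7.94 at PIP day 5 and 11.61, 11.54 and 11.58 at day 3. NTS, which encodes the peptide neurotensin, fell by 3.63 ± 0.15 and was detected on 2 of 3 PIP day 5 arrays.

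HES5, a repressor that Notch signalling switches on in neural progenitors, had 5.53, 5.38 and 5.37 at PIP day 5 and 8.77, 8.48 and 8.36 at day 3. HEY2, a related Notch target, was detected on no PIP day 5 array and was at least 6.26-fold lower. ACTG2, a smooth muscle actin, fell by 3.09 ± 0.14, ZNF488 by 2.90 ± 0.12, and the metalloprotease ADAMTS8 by 2.61 ± 0.10. PRICKLE1, a planar cell polarity protein, had a log2 difference of -2.81 ± 0.08. The adrenergic receptor ADRA2A had 6.09, 6.03 and 5.80 at PIP day 5 and 8.57, 8.55 and 8.62 at day 3. The remaining 3 of the 15 largest falls were C11orf96, the ciliary gene CFAP95 and the pseudogene PDCL3P4, with log2 differences of -2.84, -2.72 and -2.70. The probe of PDCL3P4 may also bind transcripts of its parent gene, which was not tested.

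Most targets of BMP signalling rose. Of 19 BMP targets tested, 15 were higher and 2 lower, with a median log2 difference of 0.90, beside 44.4% called and a median of 0.004 over all genes, and scaling to the median of all probes left 14 higher and 2 lower. The rise was not particular to PIP. From day 3 to NSB day 5, 12 of the 19 were higher and 3 lower, with a median of 0.54. ID1 had 11.63, 11.58 and 11.70 at PIP day 5, against 9.62, 9.78 and 9.71 at day 3, a rise of 1.93 ± 0.08 (adjusted p = 9.82e-18, limma). ID4 had 9.02, 8.85 and 8.96 at PIP day 5 and 6.37, 6.43 and 6.44 at day 3. ID2 had 10.44, 10.63 and 10.89 at PIP day 5 and 9.22, 9.06 and 9.08 at day 3. ID3 had the smallest difference of the 4 ID genes, at 0.61 ± 0.08, with 11.86, 11.82 and 11.82 at PIP day 5 and 11.28, 11.23 and 11.15 at day 3. SMAD7, an inhibitory SMAD that limits BMP and activin signals, had 7.03, 6.81 and 7.14 at PIP day 5 and 5.05, 5.27 and 5.07 at day 3. SP5, a zinc finger factor that also answers to WNT, was undetected at day 3 and at least 4.84-fold higher, with 7.71, 7.24 and 7.28 at PIP day 5. BAMBI, a decoy receptor that BMP signals induce, averaged 9.87 ± 0.14 at PIP day 5 and 9.52 ± 0.05 at day 3 (SD, n = 3 each), a call of 0.35 that was lost under that scaling (0.12, adjusted p = 0.598 in limma). GATA2, a factor of non-neural ectoderm, and UNC5B, a netrin receptor, were the 2 targets called lower, by 0.91 and 0.50 on the log2 scale.

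BMP ligands went in both directions. Of 8 ligands tested, 2 were higher and 3 lower, and the median log2 difference was 0.03, with a change of sign (-0.06) when arrays were scaled to the median of all probes. BMP4 had 9.78, 9.76 and 9.66 at PIP day 5 and 9.36, 9.34 and 9.30 at day 3 (difference 0.40 ± 0.13, adjusted p = 0.0148 in limma), a call that was lost under that scaling (0.19, adjusted p = 0.384). GDF11 rose by 0.58 ± 0.09, also not called under that scaling (0.36, adjusted p = 0.0541). A dimmer probe of GDF11 went the other way (-0.21) and was not called. BMP2 was lower by 0.37 ± 0.12 (6.81, 6.88 and 6.82 at PIP day 5, against 7.22, 7.27 and 7.12 at day 3), and its adjusted p was 0.0508 without day 3 replicate 2. BMP6 and BMP7 had differences of -0.26 and -0.33, called over all arrays, whereas leaving out single arrays gave adjusted p-values of up to 0.202 for BMP6 and 0.214 for BMP7. Among receptors and SMADs 5 of 10 were higher and 1 lower, which turned to 1 higher and 2 lower when arrays were scaled to the median of all probes. The rises included the type I receptor ACVR1 (0.58), the co-receptor RGMA (0.63) and SMAD9 (0.71). Under that scaling the rises of ACVR1 and RGMA were not called. BMPR1B, another type I receptor, was detected on no PIP day 5 array and on 3 day 3 arrays, with a fitted difference of -0.43. Of 9 secreted antagonists 3 were higher and 0 lower: GREM1, given above, FST (11.35, 11.14 and 11.14 at PIP day 5, against 9.85, 9.92 and 9.91 at day 3) and FSTL3 (difference 0.57). At an unadjusted p under 0.05 in limma the antagonist counts were the same, 3 higher and 0 lower. Called in either direction were 33.3% of antagonists, 62.5% of ligands and 60% of receptors and SMADs. Over all genes 44.4% were called, 21.4% higher and 23.0% lower.

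The 250 bases before the start of 4 BMP targets are shown, chosen as the largest rises among named targets with a promoter entry. They are RefSeq sequences on build GRCh38.p14, and capitals mark CAGAC on either strand, the core of a SMAD-binding element, and TATAAA on either strand, the TATA box, where the overlapping matches on both strands form 1 run of capitals in ID1. SP5 is shown from chr2:170715087-170715336 on the + strand, ID4 from chr6:19837120-19837369 on the + strand, ID1 from chr20:31605039-31605288 on the + strand, and SMAD7, at the most upstream of its 3 listed starts, from chr18:48950966-48951215 on the - strand.
SP5: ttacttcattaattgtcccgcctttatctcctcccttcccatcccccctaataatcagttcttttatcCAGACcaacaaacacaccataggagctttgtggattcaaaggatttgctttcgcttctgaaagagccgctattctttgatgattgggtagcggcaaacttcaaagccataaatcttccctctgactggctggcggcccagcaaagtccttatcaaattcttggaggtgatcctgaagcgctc
ID4: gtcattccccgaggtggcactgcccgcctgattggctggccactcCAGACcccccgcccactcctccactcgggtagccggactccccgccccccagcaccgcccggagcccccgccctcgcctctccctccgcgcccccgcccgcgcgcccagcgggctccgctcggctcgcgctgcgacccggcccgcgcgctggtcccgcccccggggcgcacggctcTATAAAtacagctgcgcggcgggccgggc
ID1: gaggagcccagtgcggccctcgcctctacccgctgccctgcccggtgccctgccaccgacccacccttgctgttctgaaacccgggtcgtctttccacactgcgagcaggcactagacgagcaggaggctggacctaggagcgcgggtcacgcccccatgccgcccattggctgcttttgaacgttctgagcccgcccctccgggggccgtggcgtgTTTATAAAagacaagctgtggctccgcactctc
SMAD7: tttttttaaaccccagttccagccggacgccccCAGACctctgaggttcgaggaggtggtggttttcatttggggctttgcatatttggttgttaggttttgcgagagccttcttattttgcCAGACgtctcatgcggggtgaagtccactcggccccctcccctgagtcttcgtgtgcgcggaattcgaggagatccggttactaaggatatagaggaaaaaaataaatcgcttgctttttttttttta
GGCGCC, a palindrome bound by BMP SMADs, was searched as well and was in none of the 4 windows, so no capitals mark it. SMAD6 rose by 2.21, more than ID1 and SMAD7, but is not shown because it was outside the named genes. Its window held none of the motifs searched. Of the 15 BMP targets called higher, 13 had an entry, and DLX5 and HEY1 had none. Windows of 7 of these 13 genes held CAGAC, 4 held TATAAA and 3 held GGCGCC, counting a gene with several starts once if any start held the motif. Over all 35116 promoter windows of 250 bases, 13345 held CAGAC, while TATAAA was in 10.7% and GGCGCC in 16.4% on either strand. A match is a stretch of letters and no measured binding site.

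Genes of the non-neural ectoderm and neural border split into a strongly risen and a fallen set. Of 20 tested, 9 were higher and 4 lower, with a median of 0.15, and 7 of the 9 rises were at least 2-fold. Besides DLX5 and TFAP2A, PRDM1, a repressor needed for neural crest and sensory neurons in zebrafish, had 8.50, 8.36 and 8.43 at PIP day 5 and 6.08, 5.89 and 5.90 at day 3. A second probe of PRDM1 rose by 0.50. DLX3, a homeobox factor of the border and later of epidermis, had 7.56, 7.52 and 7.38 at PIP day 5 and 5.12, 5.35 and 5.27 at day 3. GATA3, a zinc finger factor of non-neural ectoderm, was detected on 1 of 3 PIP day 5 arrays and on no day 3 array, with 5.09, 5.16 and 5.27 at PIP day 5 and 4.58, 4.81 and 4.66 at day 3, so that its called difference of 0.49 lies near the detection floor. MSX1, a border homeobox factor, differed by -0.17 ± 0.12, which missed the threshold (adjusted p = 0.25, limma). The falls were GATA2, EPAS1 (-1.06), FOXI2 (-1.02) and VGLL3, the last named after its value was seen. Scaling to the median of all probes gave 9 higher and 5 lower. Of the 5 markers set for non-neural ectoderm, TFAP2A, GATA3, DLX3 and DLX5 were higher and KRT18 was lower (-0.34). Their summed intensity was 7220 to 7780 at PIP day 5 and 6480 to 6960 at day 3.

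Of 19 preplacodal and placode genes 6 were higher and 3 lower, 47.4% called beside the 44.4% of all genes, and their median of 0.14 turned to -0.08 when arrays were scaled to the median of all probes. HESX1, a factor of the anterior placode and pituitary, had 11.78, 11.84 and 12.01 at PIP day 5, against 9.33, 9.35 and 9.18 at day 3, a 6.02-fold rise. EYA1, a transcriptional co-activator with phosphatase activity, rose by 0.67 ± 0.10, with 6.53, 6.30 and 6.17 at PIP day 5 and 5.56, 5.80 and 5.63 at day 3. OTX2, an anterior factor, had 12.34, 12.39 and 12.23 at PIP day 5 and 11.46, 11.49 and 11.46 at day 3, and a dimmer probe of OTX2 rose by 2.30. SIX5 rose by 0.88, whereas EYA3, IRX2 and PITX3 fell by 1.18, 0.92 and 0.27. PITX3 was detected on 2 day 3 arrays only, and its call was lost in most of the settings tried.

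Of 28 anterior neural and eye field genes 12 were higher and 3 lower, beside 21.4% higher and 23.0% lower over all genes, with a median of 0.31, and 8 of the 12 rises were at least 2-fold, led by SIX3, LMO1 and LHX2. PAX6, the eye and neural plate factor, was still low, with 5.77, 5.58 and 5.83 at PIP day 5, against 4.72, 4.66 and 4.73 at day 3, where it was undetected, so that it was at least 1.51-fold higher. The falls were EMX1, DMRTA1 and FOXD1, with differences of -1.08, -0.98 and -0.55. Of the 5 markers set for neuroectoderm, PAX6, OTX2, SIX3 and LHX2 were higher, and SOX1 was detected on no array of either group. Neural progenitor genes were higher in 18 of 38 cases and lower in 7, with a median of 0.21. ZEB2, a repressor that binds SMADs, had 7.87, 7.88 and 7.66 at PIP day 5 and 5.32, 5.30 and 5.09 at day 3, while a probe of ZEB2 near background differed by 0.10 and was not called. NES, the intermediate filament nestin, fell by 1.00 ± 0.12, and BCL11A, a zinc finger factor, by 1.13 ± 0.12. SOX2 was read by a dim probe, with 5.17, 5.64 and 5.44 at PIP day 5 and 5.26, 5.20 and 5.15 at day 3, groups that overlap (adjusted p = 0.217, limma).

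Notch pathway genes were divided, with 7 of 23 higher and 8 lower and a median of 0.01, which fell to -0.22 under scaling to the median of all probes. Targets went both ways: HES5, HEY2 and HES2 (-0.91) fell, whereas HES1 had 8.31, 8.25 and 7.99 at PIP day 5 and 6.71, 6.85 and 6.70 at day 3, HEYL rose by 1.20 and HEY1 by 0.90. The ligand DLL1 had 8.09, 8.17 and 8.15 at PIP day 5, against 8.95, 8.92 and 8.98 at day 3 (-0.82 ± 0.08, adjusted p = 9.73e-10 in limma). Neuronal genes were higher in 7 of 31 cases and lower in 7, close to the 21.4% and 23.0% of all genes, or 5 and 10 under that scaling. Among them were STMN2 (0.92), MYT1 (1.49) and PRPH (1.02) on the one side and DCX (-1.39), INSM1 (-1.30) and SCG3 (-1.14) on the other.

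**Figure D2:**
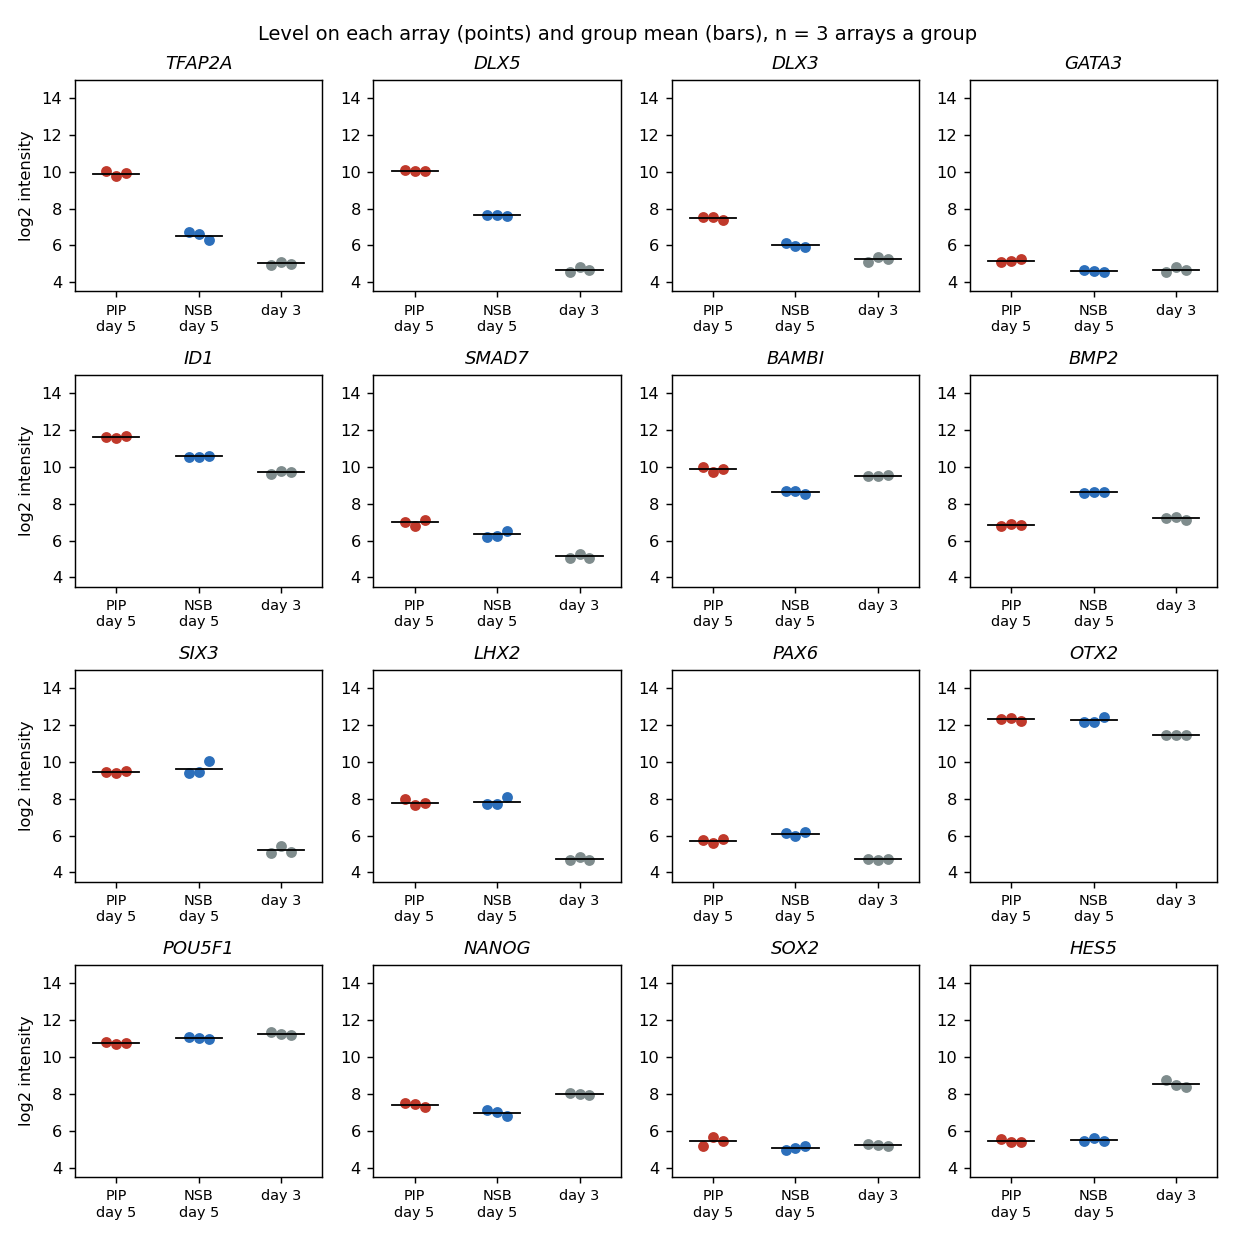
Log2 intensity of 16 genes on each array (points) with the group mean (bars), for PIP day 5 (red), NSB day 5 (blue) and day 3 (grey), 3 arrays a group and 1 scale for all panels. TFAP2A, DLX5, DLX3 and ID1 run downward in the order PIP day 5, NSB day 5, day 3, SIX3 and LHX2 stand alike in both arms above day 3, and BMP2 and BAMBI lie on opposite sides of day 3 in the 2 arms.

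Of 24 core pluripotency genes 12 were lower, 4 higher and 8 not called, with a median of -0.19, beside 23.0% lower over all genes. POU5F1, the stem cell factor OCT4, had 10.80, 10.73 and 10.79 at PIP day 5, against 11.34, 11.27 and 11.21 at day 3 (-0.50 ± 0.09, adjusted p = 5.2e-05, limma), and another probe gave -0.54, while a POU5F1 probe near background gave -0.02 and was not called. NANOG averaged 7.41 ± 0.12 at PIP day 5 and 8.01 ± 0.05 at day 3 (SD, n = 3 each), with no overlap of the groups. Larger falls were seen for VRTN, DPPA2 and DPPA4 (-1.47, -1.27 and -0.85). Against this trend DPPA3, a maternal and germ cell factor, had 7.28, 7.02 and 6.99 at PIP day 5 and was undetected at day 3 (4.82, 4.91 and 4.82), while KLF4 and the let-7 blocker LIN28B rose by 0.65 and 0.47. The call of LIN28B was lost when arrays were scaled to the median of all probes (0.24, adjusted p = 0.135 in limma).

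Genes of the Nodal and activin pathway were higher in 6 of 22 cases and lower in 4 (45.5% called, beside 44.4% of all genes), or 3 and 4 when arrays were scaled to the median of all probes. LEFTY1, a feedback inhibitor of Nodal, was detected on 0 of 3 PIP day 5 arrays and on 0 of 3 day 3 arrays, and NODAL on 0 of 3 and 1 of 3. Their differences of -0.22 and -0.13 did not pass the test, but LEFTY1 was called lower with adjusted p-values of 0.0157 to 0.0355 in 4 of the settings tried, and the sign of NODAL turned (0.07) when arrays were scaled over probes detected everywhere. Of 8 genes of DNA methylation, 3 were higher and 4 lower. DNMT3B, a de novo methyltransferase of stem cells, had 11.91, 11.95 and 11.93 at PIP day 5 and 12.48, 12.57 and 12.61 at day 3, and its less bright probe differed by 0.18 and was not called. TET1, which oxidises methylcytosine, rose by 0.50, a call lost under scaling to the median of all probes. A less bright probe of TET1 differed by 0.15 and was not called. DNMT3A is given with no direction, since its chosen probe rose by 0.59 and another fell by 1.03.

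Ligands and receptors of WNT signalling were more often higher than lower (16 and 5 of 29, median 0.31, and 10 and 5 after scaling to the median of all probes). Frizzled receptors changed in both directions. FZD2 had 10.92, 10.87 and 10.95 at PIP day 5 and 8.12, 8.15 and 8.24 at day 3, FZD5 rose by 1.55 and FZD1, undetected at day 3, was at least 3.12-fold higher. FZD7 fell but was still well detected, with 10.92, 10.76 and 10.94 at PIP day 5 and 12.09, 12.03 and 12.15 at day 3. The ligands WNT4 and WNT5A fell by 2.11 and 1.42, and WNT4 was detected on 1 of 3 PIP day 5 arrays. Secreted WNT inhibitors were higher in 6 of 13 cases and lower in 2. Besides DKK1, FRZB had 12.03, 11.93 and 11.92 at PIP day 5 and 9.28, 9.46 and 9.18 at day 3, and SHISA2, which retains frizzled and FGF receptors in the cell, rose by 2.48 ± 0.09. AXIN2, a feedback target of WNT, had 9.37, 9.42 and 9.53 at PIP day 5 and 10.88, 10.73 and 10.82 at day 3, while TNFRSF19, also a WNT target, rose by 2.09.

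Hedgehog genes were higher in 6 of 10 cases and lower in 2, or 2 and 2 after scaling to the median of all probes. GAS1, a co-receptor, had 9.61, 9.55 and 9.70 at PIP day 5 and 7.91, 7.99 and 7.90 at day 3, and GLI3 rose by 0.93, whereas the feedback targets GLI1 and PTCH1 fell by 1.04 and 0.77. FGF ligands and receptors had 4 of 16 higher and 3 lower (43.8% called, beside 44.4% of all genes), or 2 and 4 after scaling to the median of all probes: FGFR3 rose by 1.00, and FGF2, FGF16 and FGF19 fell by 1.04, 0.75 and 0.63. FGF and ERK targets had 5 of 23 higher and 4 lower (39.1% called), or 4 and 7 under that scaling, among them DUSP4 and EGR1 (1.63 and 0.78) and MYC, ETV4 and PHLDA1 (-0.92, -0.62 and -0.32). In the retinoic acid list 5 of 19 were higher and 3 lower. DHRS3, which reduces retinaldehyde, had 8.58, 8.56 and 8.55 at PIP day 5 and 11.10, 10.95 and 11.08 at day 3, and the synthesis enzymes ALDH1A2 and ALDH1A3 went apart, with differences of 1.33 and -0.75.

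Simple epithelial and junction genes were lower in 20 of 38 cases and higher in 4, with a median of -0.33. For this list and the 2 further lists below, the shares over all genes were 23.0% lower and 21.4% higher. The epithelial fall was not particular to PIP. From day 3 to NSB day 5, 23 of the 38 were lower and 1 higher, with a median of -0.47. CDH3, or P-cadherin, had 10.05, 10.27 and 10.15 at PIP day 5 and 11.17, 11.20 and 11.17 at day 3. EPCAM, an epithelial adhesion molecule, had 11.51, 11.50 and 11.44 at PIP day 5 and 12.52, 12.49 and 12.47 at day 3, and the epithelial factor ELF3 fell by 1.01. The rises were OVOL2, named after its value was seen, the vesicle protein RAB25 (1.13) and the grainyhead factors GRHL3 (7.98, 7.99 and 8.15 at PIP day 5, against 7.03, 7.03 and 7.26 at day 3) and GRHL1 (0.54). CDH2, or N-cadherin, had 12.10, 12.04 and 11.96 at PIP day 5 and 10.53, 10.53 and 10.59 at day 3. Of the matrix and integrin list 18 of 50 were higher and 15 lower, which turned to 11 and 16 (median -0.07) under scaling to the median of all probes. HAPLN1, which links hyaluronan to proteoglycans, GPC3, a glypican, and COL4A6 rose by 2.82, 2.12 and 1.93, and SPP1, COL12A1 and SPARC fell by 2.56, 1.93 and 1.496. Axon guidance genes were higher in 13 of 38 cases and lower in 7, a balance that turned to 8 and 9 (median -0.03) under scaling to the median of all probes, with EFNA2 and ROBO1 (1.81 and 1.505) next to EPHA4, and NRP2, EPHB6 and NRP1 lower (-1.68, -1.01 and -0.85). A less bright probe of NRP1 differed by -0.12 and was not called.

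**Figure D3:**
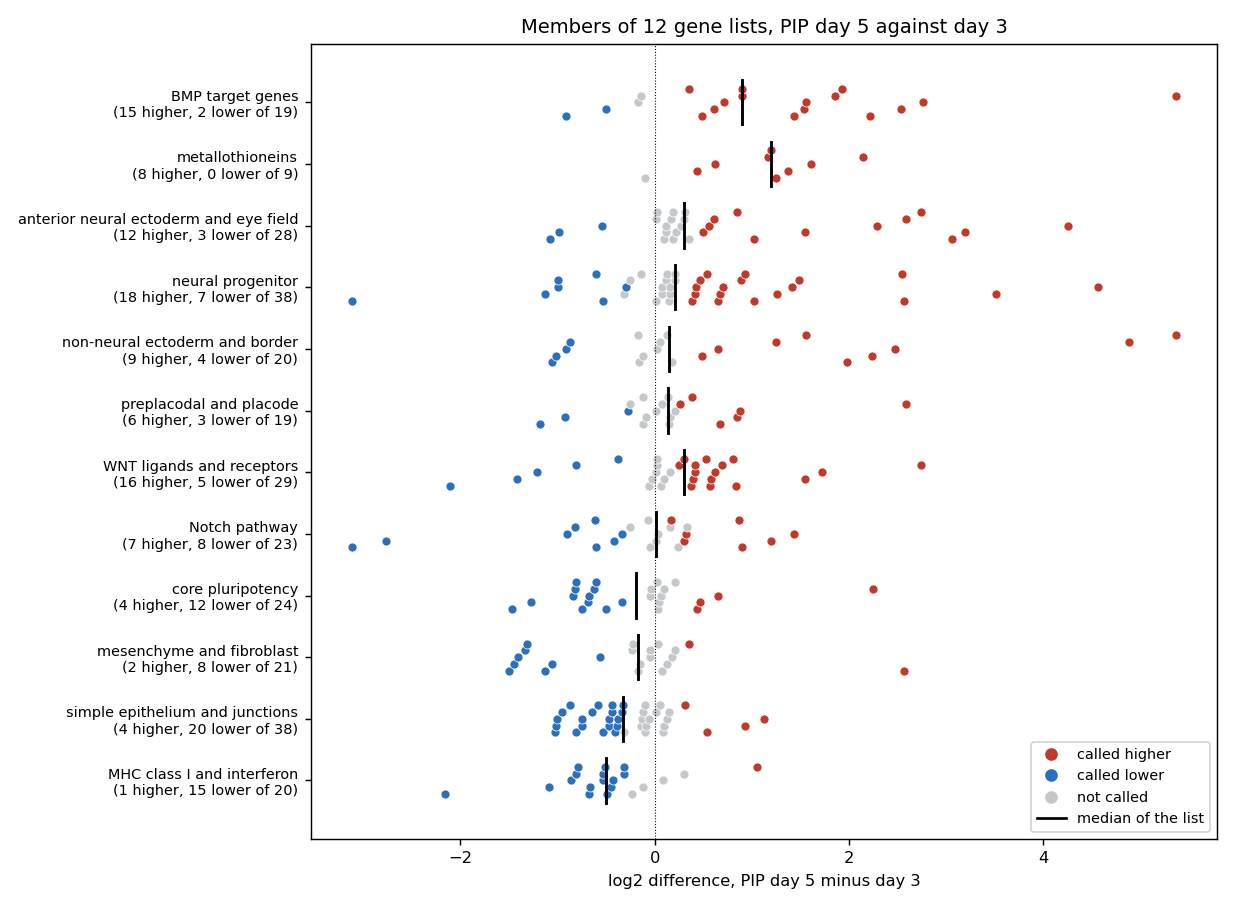
Log2 difference of each tested member of 12 gene lists, PIP day 5 minus day 3 (horizontal axis), with genes called higher in red, called lower in blue and not called in grey, and the list median as a bar. Most BMP targets and metallothioneins lie right of 0, most epithelial and MHC class I genes lie left of it, and the border list holds both large rises and a cluster of falls near -1.

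Several groups with no tie to the ectoderm moved as well. Of 9 metallothioneins, which bind zinc and copper, 8 were higher and 0 lower, with a median of 1.20, and at an unadjusted p under 0.05 in limma the counts were also 8 and 0. MT1G averaged 12.28 ± 0.11 at PIP day 5 and 10.14 ± 0.12 at day 3 (SD, n = 3 each), MT1X rose by 1.61 and MT1M by 1.37. Metallothionein genes are near-identical copies, so probes of 1 may bind transcripts of another. Of 20 MHC class I and interferon-responsive genes 15 were lower and 1 higher, with a median of -0.50. MX1, an antiviral GTPase, had 7.90, 8.01 and 7.92 at PIP day 5 and 10.08, 10.11 and 10.11 at day 3, HLA-B fell by 1.09 and IFITM3 by 0.86, and BST2, or tetherin, was the gene that rose (1.06). Between day 1 and day 3, a comparison that shares the day 3 arrays and in which 54.4% of all genes were called, 16 of these 20 had been higher at day 3 and 1 lower, and 0 of 9 metallothioneins had been higher and 7 lower. Both groups moved the same way in the other arm. From day 3 to NSB day 5, 8 of the 9 metallothioneins were higher (median 1.04). Of the 20 MHC class I and interferon-responsive genes, 12 were lower and 1 higher there (median -0.31).

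Cell cycle genes were higher in 19 of 52 cases and lower in 9, a balance that turned to 6 higher and 17 lower when arrays were scaled to the median of all probes, with medians of 0.10 and -0.12. E2F2 (1.91), CDC6 (1.05) and CENPF (1.03) rose, and CDK6, CDKN1C and MCM5 fell by 1.35, 0.71 and 0.61. Of 13 heat shock genes 7 were higher and 3 lower, or 4 and 4 under that scaling, with HSPA1A (1.40), HSPH1 (1.14) and HSPA1B (0.93) higher, and HSPA1A and HSPA1B are near-identical copies. In the hypoxia and glycolysis list 13 of 38 were higher and 12 lower, or 10 and 13 under that scaling. ADM, the hypoxia-induced peptide adrenomedullin, had 9.12, 9.16 and 9.11 at PIP day 5 and 11.24, 11.20 and 11.23 at day 3, whereas P4HA1 and ANKRD37, also induced by hypoxia, rose by 1.32 and 1.24. Genes of cholesterol and fatty acid synthesis were lower in 9 of 27 cases and higher in 3, led by ACSS2 (-1.25), SQLE (-0.76) and SC5D (-0.73), and ATF4 and stress genes were lower in 9 of 34 cases and higher in 6. Scaling to the median of all probes gave 13 lower and 1 higher for cholesterol and fatty acid synthesis, and 16 lower and 1 higher for ATF4 and stress genes. Immediate early genes were lower in 6 of 18 cases and higher in 1, p53 targets lower in 6 of 24 and higher in 2, and YAP targets lower in 5 of 17 and higher in 4, beside 23.0% lower and 21.4% higher over all genes. Under the same scaling the immediate early list had 9 lower and 1 higher, the p53 list 10 lower, and the YAP list 7 lower and 1 higher.

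Markers of other cell types were mostly low. Of 5 trophoblast markers 4 were tested, and 0 were called in either direction by limma or passed at an unadjusted p under 0.05. Their summed intensity was 141 to 166 at PIP day 5 and 134 to 150 at day 3. GCM1 was detected on 3 of 3 arrays of both groups, CGA on 3 PIP day 5 and 2 day 3 arrays, ELF5 on 1 PIP day 5 array, and CGB5 and PSG1 on no array of either group. Of the mesendoderm markers 3 were tested and 0 passed either way, adjusted or unadjusted, in limma, while MIXL1 and SOX17 were detected on no array of either group, and the sums were 103 to 118 at PIP day 5 and 99.3 to 104 at day 3. TBXT had overlapping values (5.14, 5.39 and 5.65 at PIP day 5, and 5.32, 5.14 and 5.15 at day 3). CDX2 was below the filter. The mesenchyme markers COL1A1 and TWIST1 fell by 1.40 and 1.13, with a summed level of 789 to 821 at PIP day 5 and 1960 to 2160 at day 3, whereas COL3A1, LUM and PRRX1 were detected on no array of either group. In the wider mesenchyme list 8 of 21 were lower and 2 higher. Of the neural crest markers SOX10 was higher and ERBB3 (-1.03) and FOXD3 lower, with PAX3 and SNAI2 undetected. HAND1, which is known from trophoblast, amnion and heart, was undetected at day 3 and at least 3.82-fold higher at PIP day 5 (7.19, 6.88 and 7.13), and ISL1, known from amnion and sensory neurons, had 6.03, 5.53 and 5.79 at PIP day 5 and 5.26, 5.16 and 4.96 at day 3. Of the 24 genes of the trophoblast and amnion list 5 were higher and 5 lower. AFP, a liver and yolk sac protein, and HBA1, a globin, fell by 1.82 and 1.58. HHEX, an endoderm and forebrain factor, had 9.07, 8.67 and 8.84 at PIP day 5 and 7.24, 7.38 and 7.09 at day 3.

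The step was then set against the other arm, to ask which part of it differed once the arms had separated. At day 5, PIP had 800 genes above their NSB level (5.93%) and 754 below it (5.59%), 11.5% of those tested, and at least 2-fold 37 were higher and 8 lower (0.334% of genes). From day 3 to NSB day 5, 2494 genes were higher (18.5%) and 2471 lower (18.3%), or 36.8% of genes, and this comparison shares the day 3 arrays with the PIP step. The split of higher against lower between the arms also hung on scaling, with 51.5% of calls higher in PIP after quantile normalization and 15.1% when arrays were scaled to the median of all probes. Without PIP day 5 replicate 1 the counts were 473 higher and 402 lower, and without NSB day 5 replicate 3 they were 534 and 444.

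TFAP2A differed most between the arms, with 10.03, 9.75 and 9.93 in PIP and 6.71, 6.63 and 6.27 in NSB at day 5, a log2 difference of 3.37 ± 0.15 (adjusted p = 3.73e-15, limma). DLX5 had 10.10, 10.03 and 10.03 in PIP and 7.68, 7.67 and 7.60 in NSB. Also in NSB, TFAP2A was above day 3 by 1.52 and DLX5 by 2.96. GREM1 had 8.15, 8.17 and 8.14 in PIP and 5.96, 5.78 and 5.90 in NSB. HAND1 was detected on all 3 PIP arrays and on no NSB array, at least 3.82-fold higher in PIP. ANKRD1, CAPZA1, a capping protein of actin filaments, GRHL3, ID4, DLX3 and SAMD11, a nuclear protein of photoreceptors, made up the rest of the 10 largest positive differences, of which that of SAMD11 was the smallest (1.38). ID1 had 11.63, 11.58 and 11.70 in PIP and 10.56, 10.55 and 10.60 in NSB, ID3 differed by 0.28, and the difference of 0.24 for ID2 did not pass the test. Of the 19 BMP targets 10 were higher in PIP than in NSB and 0 lower by limma, and of the 20 border genes also 10 and 0. Over all genes 5.93% were higher and 5.59% lower. At an unadjusted p under 0.05 the counts were 12 higher and 0 lower in both lists. The lists share members, DLX5 and GATA2 among them, so their counts are not separate results. List counts and differences of single genes between the arms were not checked under other scalings, so small ones may depend on the scaling. SP5 did not differ detectably between the arms (-0.12 ± 0.16, adjusted p = 0.688, limma).

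On the other side CUZD1 had 8.24, 8.41 and 8.35 in PIP and 10.84, 10.87 and 10.69 in NSB, a difference of -2.47 ± 0.11, and NPTX1 had 8.41, 8.12 and 7.94 in PIP and 10.32, 10.39 and 10.20 in NSB. Both were abundant at day 3 and lower in each arm by day 5. SIX6, an eye field and pituitary factor, had 5.38, 5.46 and 5.33 in PIP and 6.68, 6.75 and 6.67 in NSB. FOXJ1, SMOC2, a matrix protein that modulates BMP signals, NRP2, a semaphorin receptor, and the LIM factor LHX4 were lower in PIP by 1.39, 1.36, 1.36 and 1.14, and ZEB2 and the malic enzyme ME3 each by 0.98. BMP2 had 6.81, 6.88 and 6.82 in PIP and 8.60, 8.65 and 8.66 in NSB (-1.80 ± 0.12, adjusted p = 1.39e-11, limma). Of the 28 anterior neural and eye field genes 2 were higher in PIP and 6 lower, beside 11.5% called over all genes. The differences of SIX3, LHX2 and LMO1 were -0.19, -0.04 and -0.02 and did not pass the test, while SIX6, given above, was lower, as was PAX6 (-0.38 ± 0.09, adjusted p = 0.0056, limma). NANOG was higher in PIP by 0.44, and POU5F1 did not pass the test (-0.27, adjusted p = 0.0519, limma).

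**Figure D4:**
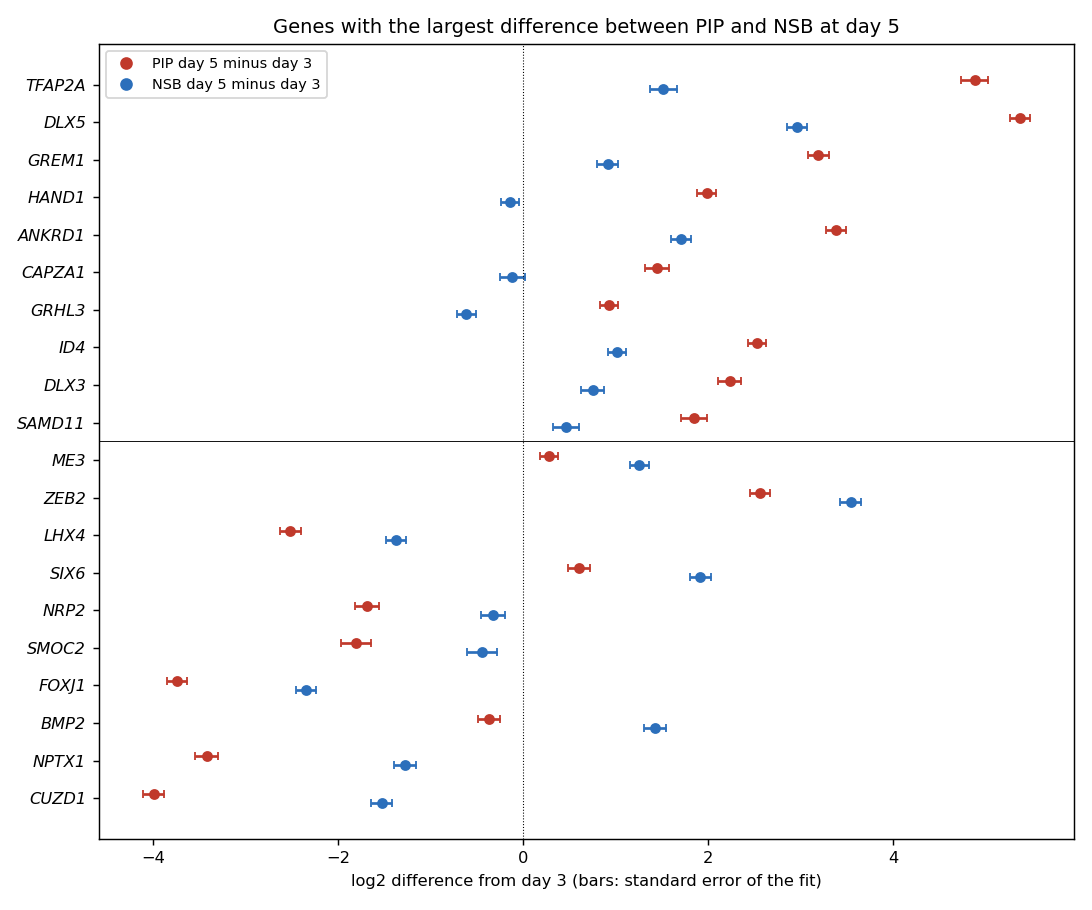
Log2 difference from day 3 of PIP day 5 (red) and NSB day 5 (blue), with the standard error of the fit, for the 10 genes highest and the 10 genes lowest in PIP relative to NSB at day 5. The points share the day 3 arrays, TFAP2A has the widest gap between the arms, and BMP2 and GRHL3 fall on opposite sides of 0.

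The later course of the named genes shows how far the step to day 5 had gone. All means below are over 3 arrays, with their SD. TFAP2A averaged 9.90 ± 0.14 at PIP day 5, 10.52 ± 0.13 at day 7, 10.60 ± 0.09 at day 9 and 11.28 ± 0.23 at day 11 of PIP, so that most of its increase lay between days 3 and 5. In the same way DLX5 averaged 10.06 ± 0.04, 11.19 ± 0.02, 11.29 ± 0.13 and 10.98 ± 0.07 on these days. GATA3, barely detected at day 5 (5.17 ± 0.09), reached 6.73 ± 0.07 at day 7 and 7.27 ± 0.26 at day 11 of PIP, and it was detected on no NSB array at any day. ISL1 went higher after day 5, to 7.92 ± 0.05 at day 7 and 10.06 ± 0.10 at day 9 of PIP. EYA1 had 6.33 ± 0.18 at day 5, 8.83 ± 0.14 at day 7 and 9.97 ± 0.10 at day 9 of PIP.

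PAX6 and LHX2 showed the larger part of their increase after day 5. PAX6 averaged 5.73 ± 0.13 at day 5, 9.67 ± 0.10 at day 7 and 10.31 ± 0.10 at day 11 of PIP, and LHX2 averaged 7.80 ± 0.17, 11.66 ± 0.04 and 12.25 ± 0.12 on these days. SIX3, by contrast, had its highest PIP mean at day 7 (9.93 ± 0.22) and was at 8.29 ± 0.11 at day 11 of PIP. Within the PIP course LMO1 had its highest mean at day 5 (11.34 ± 0.08) and was at 7.35 ± 0.15 at day 11. VWF did likewise, with 10.74 ± 0.06 at day 5 and 8.37 ± 0.14 at day 11. DPPA3 stood at 7.10 ± 0.16 at PIP day 5, 6.31 ± 0.11 at day 7 and was detected on no PIP array at day 9 or 11.

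HES5 dipped at day 5 and came back, with 5.24 ± 0.23 at day 1, 8.54 ± 0.21 at day 3, 5.42 ± 0.09 at day 5, 5.99 ± 0.24 at day 7, 10.80 ± 0.19 at day 9 and 11.83 ± 0.18 at day 11 of PIP. GREM1 had the opposite dip, with 8.32 ± 0.19 at day 1, 4.96 ± 0.06 at day 3 and 8.15 ± 0.02 at PIP day 5. ID1 averaged 10.85 ± 0.09 at day 1, 9.70 ± 0.08 at day 3, 11.64 ± 0.06 at day 5, 10.97 ± 0.08 at day 7 and 11.76 ± 0.03 at day 9 of PIP. BMP2, low at PIP day 5 (6.84 ± 0.04), was at 8.71 ± 0.23 by day 7 of PIP, against 7.89 ± 0.24 at day 7 of NSB, the reverse of the order at day 5. CUZD1 was undetected at day 1 (4.99 ± 0.20), stood at 12.33 ± 0.08 at day 3 and 8.34 ± 0.08 at PIP day 5, and was undetected again at day 11 of PIP. NPTX1 took the same course, with 4.80 ± 0.11 at day 1, 11.58 ± 0.03 at day 3 and 8.16 ± 0.23 at PIP day 5. NANOG had lower means at each later stage named here, with 11.23 ± 0.13 at day 1, 8.01 ± 0.05 at day 3, 7.41 ± 0.12 at day 5 and 5.11 ± 0.21 at day 11 of PIP.

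**Figure D5:**
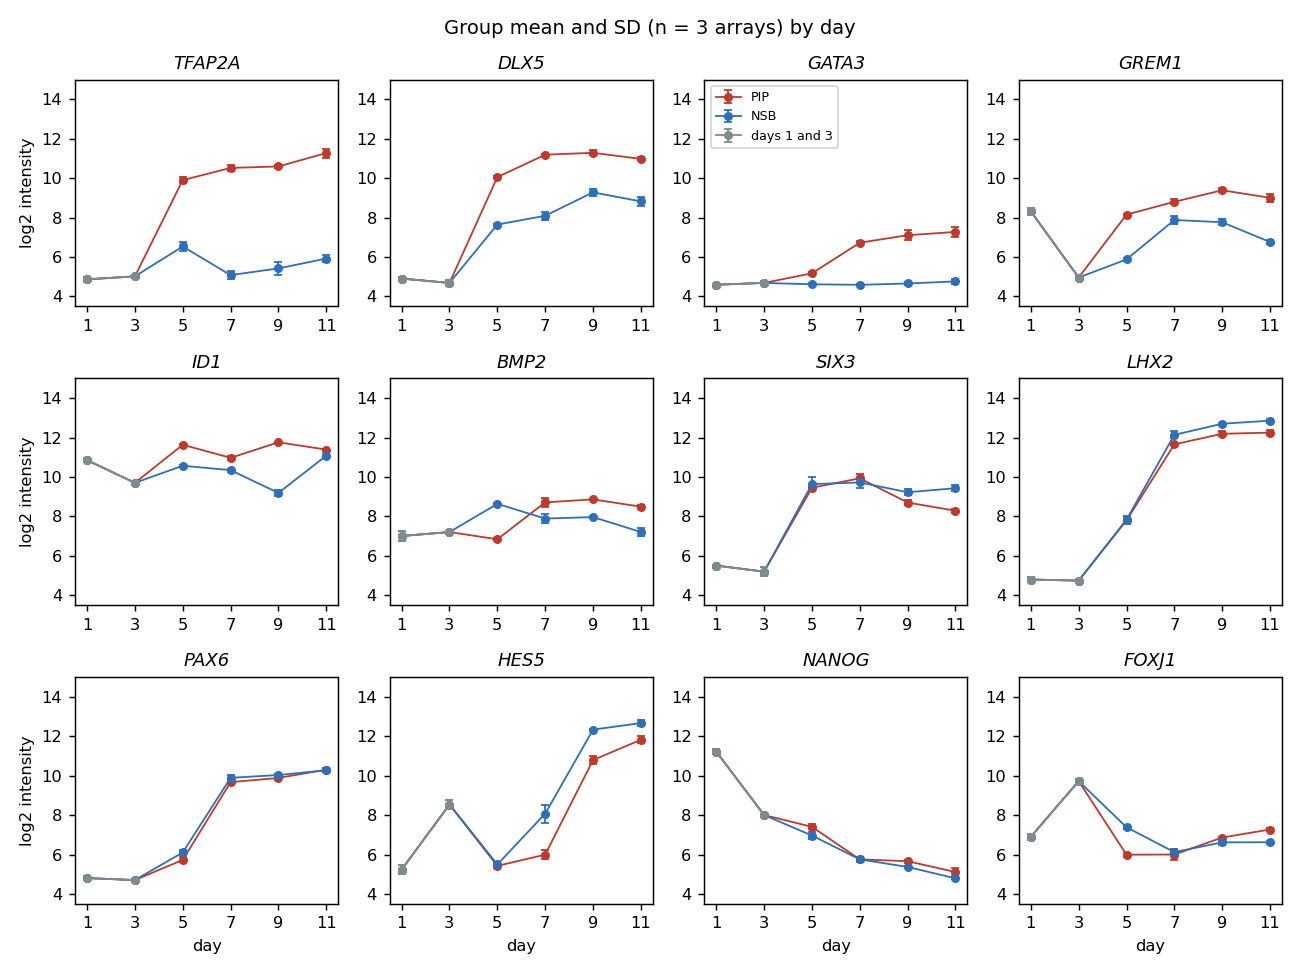
Mean log2 intensity with SD (n = 3 arrays) of 12 genes over days 1 to 11, with PIP in red, NSB in blue and the days before the arms separate in grey. TFAP2A and DLX5 reach most of their PIP level by day 5, PAX6 and LHX2 climb mainly between days 5 and 7 in both arms, HES5 has a trough at day 5, and the BMP2 lines cross between days 5 and 7.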

How the data were processed

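Total RNA of H9 cultures was read on Illumina bead arrays, with 3 arrays in each of 10 groups. Per the file headers, the deposited table holds a mean bead intensity per probe, its standard error, a bead number and a detection p-value. The authors deposited no background-corrected values in that table, and the submitters' processing notes name GenomeStudio. A second table of the authors' deposited, processed intensity values served as an alternative only. Deposited p-values measure a probe's signal against the negative controls. The bead number is another deposited column per the file headers, used only to describe the arrays. The genome build is not given in the sources used here.

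Intensities were corrected with limma's (3.58.1, in R 4.3.3) normexp method from the detection p-values with an offset of 16, quantile normalized over 30 arrays and taken to log2. Probes detected at p under 0.05 on at least 3 arrays were kept. Of 48701 probes 23687 had 1 gene name, 35 had several and 24979 had none. Of each gene's kept probes the brightest on average was used, which gave 13488 genes. Group means of all 10 groups were fitted with lmFit and eBayes, and Benjamini-Hochberg adjusted p-values under 0.05 were called. A fold against an undetected group is a bound against the lowest detected signal, computed from means of normalized log2 values. The fit was tested on simulated data.

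The text names the 15 largest rises and falls among called genes detected on all arrays of the higher group and without overlap, the 3 largest called rises and falls of each of 42 gene lists, a fixed set of ectoderm, stem cell and BMP genes, and the 10 largest differences from NSB each way. Members and lists were chosen with earlier results of these data known. A gene may stand in several lists, so the counts of different lists are not independent. Same-numbered arrays did not deviate together (residual correlations 0.0163, 0.0896 and 0.0111 between PIP day 5 and day 3), so the replicate numbers were not taken as pairs. Probes may cross-hybridise within near-identical families, which was not tested.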

Additional observations from a re-analysis of the deposited data

Results flagged for a closer look

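Of 235 named genes, 84 had a called difference between PIP and NSB at day 5. In 25 of them the step from day 3 to day 5 differed between the arms either by at least 2-fold or in direction, with a called change each way. The values are the PIP minus NSB difference of the step (log2), tested as a contrast of the limma fit, and both steps share the day 3 arrays. For 6 genes the called steps ran in opposite directions: BAMBI (1.23), CYP51A1 of cholesterol synthesis (0.87), GRHL3 (1.54) and ISL1 (0.95) were higher than day 3 in PIP and lower in NSB, and BMP2 (-1.80) and TGFB2 (-0.64), a ligand of the TGF-beta receptors, were lower in PIP and higher in NSB. The rises of BAMBI and CYP51A1 in PIP were not called when arrays were scaled to the median of all probes. ISL1 was near the detection floor already at day 3, so its called fall in NSB lies near background. TGFB2 was detected on 3 of 3 day 3 arrays and on 0 of 3 PIP day 5 arrays. The fall of TGFB2 in PIP (-0.28) was not called in 6 of 18 settings, this scaling (-0.29, adjusted p = 0.0581 in limma) and the authors' deposited values among them, with adjusted p-values up to 0.597.

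Among the rest, the step was more positive in PIP for TFAP2A (3.37), DLX5 (2.41), GREM1 (2.27), HAND1 (2.12), ANKRD1 (1.68), CAPZA1 (1.56), ID4 (1.52), DLX3 (1.48), SAMD11 (1.38), PRDM1 (1.30), ID1 (1.07) and HHEX (1.03). It was more negative in PIP for CUZD1 (-2.47), NPTX1 (-2.15), FOXJ1 (-1.39), SMOC2 (-1.36), NRP2 (-1.36), SIX6 (-1.31) and LHX4 (-1.14). The causes were not tested.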

How the results depend on the processing

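Scaling to the median of all probes gave 1166 genes higher at PIP day 5 than at day 3, and 224 higher and 1258 lower at PIP day 5 than at NSB day 5. Genes changed at least 2-fold numbered 407 without background correction and 413 with an offset of 50. A fit on the 9 arrays of day 3 and both day 5 groups gave 1295 genes higher and 1531 lower against NSB. With only the 6 arrays of PIP day 5 and day 3 in the fit, 3515 genes were higher and 3727 lower than day 3. Among genes detected on every array, the median SD was 0.062 at day 3, 0.077 at PIP day 5 and 0.15 at NSB day 7. Leaving out 1 array at a time of the 2 groups compared gave 2469 to 2575 genes higher and 2703 to 2792 lower than day 3, 664 to 689 changed at least 2-fold, and 473 to 638 higher and 402 to 533 lower than NSB. With the replicate number as a block the counts were 2854 higher and 3067 lower than day 3, 681 at least 2-fold, and 764 higher and 714 lower than NSB. The causes of these shifts were not tested, beyond the fewer arrays in some fits.

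Over 235 named genes and 4452 pairs of gene and setting, direction and call held in 4363, a call was lost in 83 and gained in 4, and 2 turned. DNMT3A was -0.22 (adjusted p = 0.0749, limma) as the mean of its probes, and NODAL was 0.0652 (adjusted p = 0.760, limma) when arrays were scaled over probes detected on every array. In 199 genes every setting kept direction and call. The slide as a block was not run, since the file headers give no slide. With 3 arrays a group their number limits precision, and genes near the detection floor, such as GATA3 and SOX2, carry little signal over background.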

Other observations

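Lens genes were higher in 4 of 16 cases and lower in 5 at PIP day 5 against day 3, with a median log2 difference of 0.02 that was -0.14 when arrays were scaled to the median of all probes. The neural crest list had 9 of 24 genes higher and 7 lower, or 6 and 8 under that scaling. Of 10 cadherins 3 were higher and 1 lower. The 6 epidermal genes tested had 2 higher and 1 lower, or 0 higher and 1 lower under that scaling. Called in either direction were 56.2% of lens, 66.7% of neural crest, 40% of cadherin and 50% of epidermal genes. Over all genes 44.4% were called, 21.4% higher and 23.0% lower.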
